A study of Mus musculus with 6 samples.

Results

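The regions described here were the 5-hydroxymethylcytosine (5hmC) peaks of mouse chromosome 11, in brain after ischemic injury and in control brain. Members were all deposited peaks on chromosome 11 of the mm9 build with a midpoint beyond 8 Mb and before 116.844 Mb, so that both ends of the chromosome were left out. There were 4914 of them among 73957 peaks in the whole series. The list from control brain held 1458 and the list from injured brain 3456. Chromosome 11 was chosen by its number of peaks per Mb, the highest in both lists when taken over its whole length in earlier results of these data, so its peak numbers are a description and no test was made on them. The limits on position left out 357 control-list and 766 injury-list peaks of the chromosome. Just outside the proximal limit the last control-list peak ran from 7097179 to 7098982 (score 137.05), and just inside the first ran from 8495722 to 8497716 (score 58.06). In the injury list the neighbours of that limit were 7097188 to 7098931 (score 121.23) outside and 8332685 to 8334841 (score 61.9) inside. At the distal limit the control list had 116836386 to 116840976 (score 166.05) inside and 116848153 to 116850258 (score 55.74) outside, and the injury list 116836337 to 116840605 (score 200.75) inside and 116845178 to 116850532 (score 228.32) outside. The distal limit thus cut through a peak-rich stretch, and the proximal limit fell in a gap of both lists.

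Brain tissue came from C57BL/6 mice, 3 with ischemic injury and 3 matched controls. The labels give no brain region, age, sex, duration of ischemia or time after it, and no purified cell type. Genomic DNA was enriched for 5hmC by hMe-Seal, in which a modified sugar is attached to each 5hmC base so that the fragments carrying it can be captured. The authors deposited 1 peak list per group and no value per mouse was used, so the spread between mice is unknown and no test between the conditions was possible. Read depth behind the lists is unknown. A longer list can come from more reads, and this could not be told apart from the condition. The 95% intervals below (exact Poisson for counts, exact binomial for shares) cover counting error only and take each peak as an independent count, which neighbouring peaks are not. In whole tissue, fewer cells of a type and less 5hmC per cell cannot be told apart either. The labelled tissue was not checked against markers, since peak positions were not linked to genes here.

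5hmC is made from 5-methylcytosine by the TET dioxygenases, and it serves both as a step towards demethylation and as a mark in its own right. Neurons carry more of it than most other cells, mainly in the bodies of expressed genes and at enhancers. Mouse chromosome 11 is a gene-rich autosome with its centromere at the proximal end, and its distal part corresponds to human chromosome 17. An mm9 sequence or annotation was not used here, so regions are given by position alone and no gene, exon or sequence is named.

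The injury list was the longer one on chromosome 11. It held 3456 peaks (95% interval 3342 to 3573) against 1458 (1384 to 1535) in the control list, a ratio of 2.37 (2.23 to 2.52). The injury list thus made up 70.3% of the members (69.0 to 71.6%). In covered bases the ratio was lower, 1.90, with 8.65 Mb (7.95% of the interior) under injury-list peaks and 4.56 Mb (4.19%) under control-list peaks. Of the bases under control-list peaks, 70.0% also lay under an injury-list peak. Of those under injury-list peaks, 36.9% lay under a control-list peak.

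Peaks were spread very unevenly along the chromosome, and in a similar way in both lists. Of 108 full windows of 1 Mb, 15 held no peak of either list. The median window held 7 control-list and 24 injury-list peaks, and the fullest held 78 and 162. The 16 richest windows carried 50% of control-list peaks in full windows. For the injury list it took 19. The part of the chromosome beyond 62.422 Mb, the middle of the interior, held 1189 control-list peaks (81.6%) and 2654 injury-list peaks (76.8%). The injury share was 74.9% (72.2 to 77.5%) before that point and 69.1% (67.6 to 70.5%) beyond it. Adjacent windows resembled each other, with a Spearman rho between neighbours of 0.70 for control-list and 0.69 for injury-list numbers. Both rhos are descriptions over windows of 1 chromosome.

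**Figure D1:**
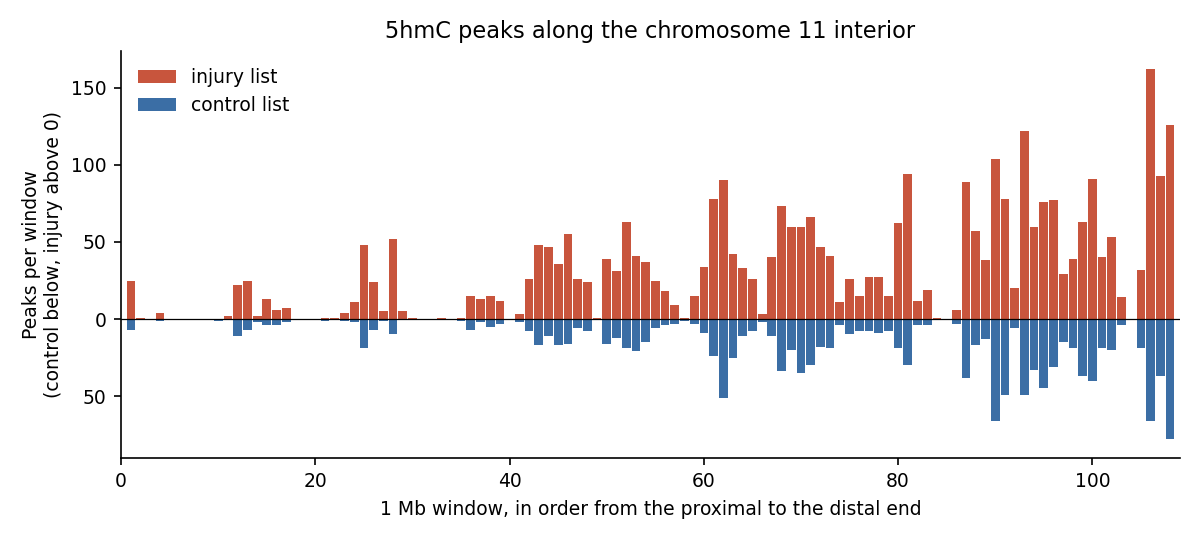
Peaks in each full 1 Mb window of the chromosome 11 interior, in order from the proximal to the distal end, with injury-list peaks drawn above 0 and control-list peaks below 0. Both lists are nearly empty over long proximal stretches and reach their highest numbers, 162 injury-list and 78 control-list peaks, near the distal end.

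Long stretches were nearly bare of peaks in both lists. Runs of at least 3 windows with at most 5 peaks each, a definition set after the numbers were seen, occurred 3 times, all in the proximal part. From 9 to 19 Mb there were 2 control-list and 7 injury-list peaks in 10 windows. From 25 to 31 Mb there were 2 and 6 in 6 windows, and from 36 to 43 Mb 1 and 8 in 7 windows. These 23 windows together held 0.343% of the control members and 0.608% of the injury members. The longest stretch without a peak of either list measured 5.13 Mb (11927601 to 17060894), the next 3.81 Mb (24665744 to 28475924) and the one after that 2.55 Mb (9035743 to 11583905). In all, 14 such stretches were longer than 1 Mb and added up to 29.2 Mb. The bare stretches were not confined to the proximal part, since the windows from 92 Mb and from 111 Mb also held no peak of either list.

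Peak-rich runs lay in the distal part. Runs of at least 3 windows with 65 or more peaks, set at the same time, occurred 4 times. They spanned 68 to 71 Mb (100 control-list and 210 injury-list peaks), 75 to 80 Mb (137 and 306), 100 to 104 Mb (158 and 335) and 113 to 116 Mb (181 and 381). In the last of these, control-list peaks covered 20.2% of the bases and injury-list peaks 35.2%. The 15 windows of these runs held 39.5% of control members and 35.6% of injury members. The stretch from 116 Mb to the distal limit, 0.844 Mb long and not ranked with the full windows, held a further 70 control-list and 124 injury-list peaks.

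The next comparison asked whether the extra injury-list peaks were spread in proportion to the control-list peaks. Across the 108 windows the numbers of the lists ran closely together, with a Spearman rho of 0.97 and a Pearson r of 0.95, given as descriptions with no test. Of the 93 windows with any peak, 88 (94.6%) had more injury-list peaks, against 91.0% of such windows in the whole series. A single window (1.08%, against 4.97% in the series) had more control-list peaks, which began at 17 Mb and held a lone control-list peak. Equal numbers occurred in 4 windows. With the injury list reduced over the genome to its 20583 highest scores, as many peaks as the control list has, it had the more peaks in 32.9% of windows with a peak. That reduction makes the lists equal in length by construction, so it says nothing of the cause. The injury list alone had a peak in 8 windows, but none of these held more than 5. Among the 11 fullest windows of each list, 9 were the same.

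**Figure D2:**
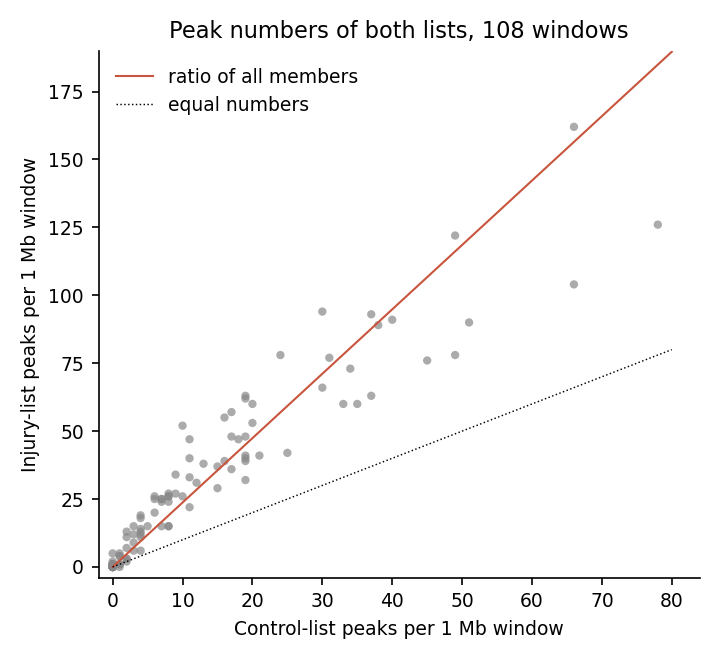
Injury-list against control-list peaks in each of the 108 full windows of chromosome 11; the solid line marks the ratio of all members, 2.37, and the dotted line equal numbers. Windows follow the solid line, and the windows with 78 and 66 control-list peaks beside 126 and 104 injury-list peaks lie below it.

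The windows with the most control-list peaks began at 115, 113, 97 and 69 Mb, followed by those from 98 and 100 Mb with 49 each. The window from 115 Mb held 78 control-list and 126 injury-list peaks, covering 28.3% and 36.7% of its bases. The window from 97 Mb held 66 and 104 peaks, covering 23.9% and 27.7%. The window from 69 Mb held 51 and 90. The window from 98 Mb held 49 and 78. In these 4 windows the lists were closer in number than over the chromosome. The windows from 113 Mb (66 and 162) and from 100 Mb (49 and 122) had injury shares of 71.1% and 71.3%, near that of all members. The window from 88 Mb, the fifth by injury-list peaks, held 30 and 94.

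Injury shares differed between windows within a modest range. Among the 63 windows with at least 20 peaks the share ran from 61.2% to 83.9% with a median of 72.1%. The lowest shares were in the windows from 97 Mb (61.2%, 53.4 to 68.5%), from 98 Mb (61.4%, 52.4 to 69.9%) and from 115 Mb (61.8%, 54.7 to 68.5%), all of them peak-rich. The highest were in the window from 35 Mb (83.9%, 72.3 to 92.0%), with 10 control-list and 52 injury-list peaks, and in those from 90 Mb (82.6%, 61.2 to 95.0%) and 63 Mb (81.8%, 59.7 to 94.8%), which had few peaks. In 1 of the 63 windows (1.59%), that from 35 Mb, the interval lay above the 72.2% of the whole series, a call made in 4.3% of such windows in the series. In 5 of them (7.94%), from 69, 97, 98, 102 and 115 Mb, it lay below, a call made in 5.32% of windows in the series. Both shares are near the background.

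**Figure D3:**
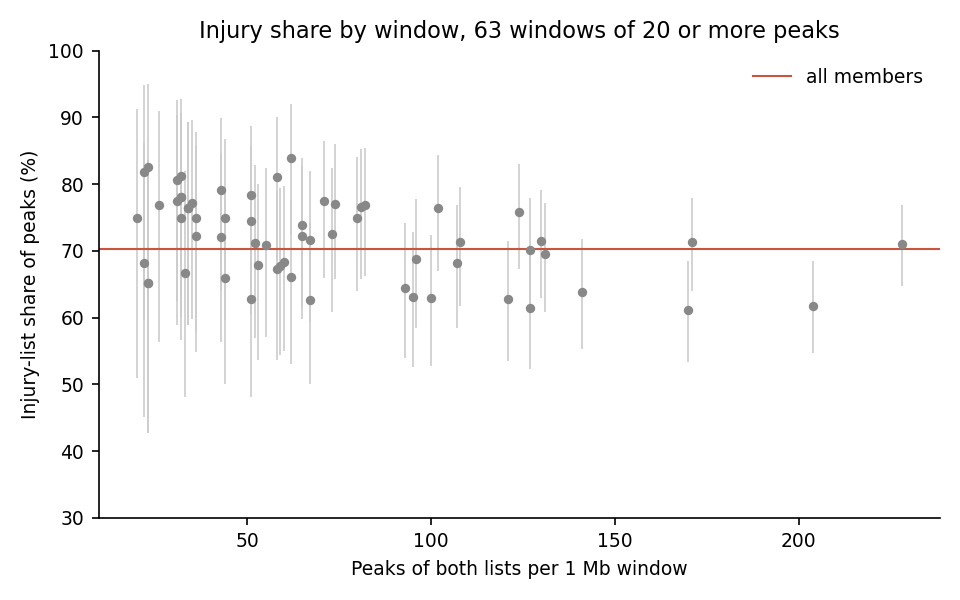
Injury-list share of peaks in each of the 63 windows with at least 20 peaks, against the number of peaks of both lists in the window; bars are exact binomial 95% intervals and the line marks all members, 70.3%. Shares run up to 83.9%, in the window from 35 Mb with 62 peaks, and the windows from 97 and 115 Mb lie near 61%.

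In groups of windows of about equal peak number, the injury share was lower where peaks were denser. When windows with any peak were ordered by the peaks of both lists and cut into 4 groups of about equal peak number, a grouping added after the data were seen, the injury list made up 74.3% (71.7 to 76.7%) in the 58 sparsest windows. It made up 73.2% (70.5 to 75.8%) in the next 17, 67.8% (65.1 to 70.5%) in the next 11 and 67.1% (64.3 to 69.7%) in the 7 densest. With the reduced list the shares in the same groups were 46.7%, 50.6%, 47.8% and 48.5%, with no such order. That list is both shorter and limited to scores of at least 105.41, and the parts of length and score were not told apart. The planned cut into 27 windows per group gave 68.8% (67.1 to 70.5%) in the fullest group. The groups below it had 73.1% (70.5 to 75.5%) and then 76.1% (71.8 to 80.1%). In the emptiest only 19 peaks were left, with a share of 68.4% (43.4 to 87.4%), so the planned fullest and emptiest groups did not differ clearly.

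The window from 113 Mb was the fullest of the injury list and held its densest runs of peaks. When peaks of 1 list were joined across gaps of at most 5 kb, the largest runs of the injury list had 27 peaks each. One ran for 130.8 kb (113223497 to 113354345), where injury-list peaks covered 88.1 kb and 8 control-list peaks 28.4 kb. The other ran for 135.5 kb (113637960 to 113773439), with 83.0 kb under injury-list peaks and 49.9 kb under 15 control-list peaks. In the first run 9 of the 27 injury-list peaks overlapped a control-list peak, and in the second 13. In steps of 100 kb, the lists were nearest at the start of the window, where 8 peaks of the control list stood beside 10 of the injury list. They were farthest apart in the step from 113.8 Mb, with 2 and 18, and in that from 113.1 Mb, with 4 and 18. Both of these steps were poor in control-list peaks.

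In 4 further runs, the third largest of the injury list and the 3 largest of the control list, peaks of both lists covered similar lengths. The third run of the injury list, of 17 peaks over 90 kb (97273666 to 97363684), had 62.0 kb under injury-list and 57.9 kb under 12 control-list peaks. The largest run of the control list had 12 peaks over 64.1 kb (98787046 to 98851104), covering 43.4 kb, with 38.5 kb under 11 injury-list peaks. The next runs of the control list, 8 peaks over 36.1 kb (107235774 to 107271867) and 7 peaks over 38.2 kb (113369138 to 113407299), were covered by injury-list peaks over 28.1 and 28.2 kb, slightly more than the 27.3 and 25.6 kb of their own peaks. Runs of 5 or more peaks numbered 30 in the control list and took in 12.5% of its members. In the injury list there were 150, with 34.4% of its members. The same limit of 5 kb was put on lists of different length, so these numbers are not comparable between the lists.

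The third comparison asked whether the same places had peaks in both lists. With an overlap of 1 bp taken as enough, 1172 control-list members (80.4%, 78.3 to 82.4%) met an injury-list peak, and 286 (19.6%, 17.6 to 21.7%) did not, against 18.7% of control-list peaks in the whole series. Of the injury-list members, 1282 (37.1%, 35.5 to 38.7%) overlapped a control-list peak, and 2174 (62.9%, 61.3 to 64.5%) did not, against 65.8% in the series. With the reduced injury list, 60.2% of injury-list and 56.4% of control-list members were shared. Joined into regions, the members of the full lists made 3663 regions covering 9.40% of the interior. Of these, 1203 (32.8%) held peaks of both lists and 2174 (59.4%) held a peak of the injury list only. The remaining 286 (7.81%) held a peak of the control list only. No share of joined regions over the whole series is given, so these shares have no background beside them. With read depth unknown, a region without a peak in a list need not lack the mark in that group.

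Sharing went up with the score that the peak caller gave. Each list was cut into 10 score groups. Among control-list peaks, 92 of 146 were shared in the bottom group (63%, 54.6 to 70.8%) and 141 of 145 in the top group (97.2%, 93.1 to 99.2%). Among injury-list peaks, 56 of 346 were shared at the bottom (16.2%, 12.5 to 20.5%) and 297 of 345 at the top (86.1%, 82.0 to 89.6%). The order was not strict: the fifth control-list group had 85.5% and the sixth 77.4%, and the third group of the injury list had the smallest share, 14.2% (10.7 to 18.3%). High-scoring peaks were also wider. Median width went from 1998 bp to 5097 bp over the control list and from 1470 bp to 4689 bp over the injury list, and the part of width in the sharing was not tested.

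**Figure D4:**
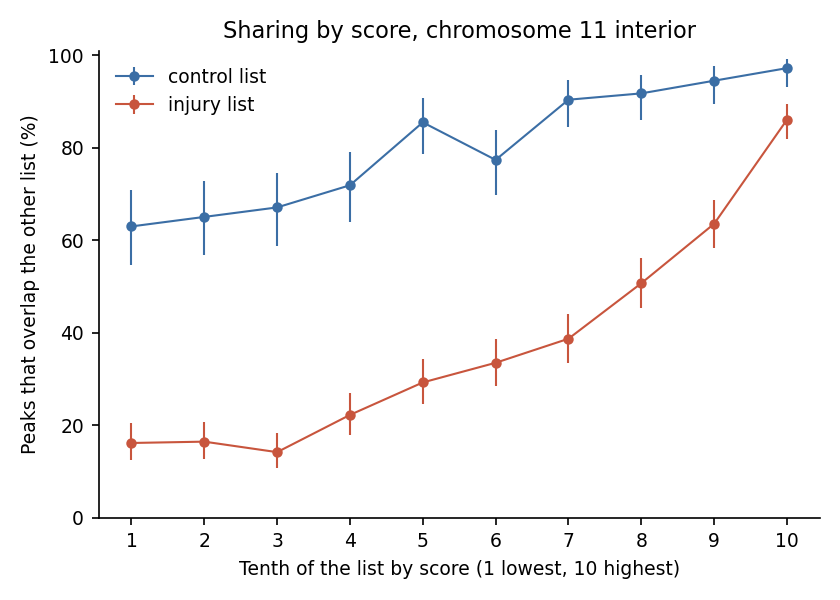
Share of chromosome 11 peaks that overlap the other list, in 10 groups of each list by score; bars are exact binomial 95% intervals. Sharing of control-list peaks goes from 63% to 97.2% and that of injury-list peaks from 16.2% to 86.1%, with each list on its own score scale.

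Peak-rich windows shared more of their peaks. In the 4 groups of windows, from sparse to dense, sharing in the control list was 71.0% (65.6 to 76.0%), 82.3%, 80.6% and 86.0% (82.2 to 89.3%). Injury-list sharing was 25.9% (23.1 to 28.9%), 33.2%, 41.9% and 46.1% (42.5 to 49.6%). The bases under peaks went up alongside, from 1.41% to 18.4% for control-list and from 3.38% to 30.1% for injury-list peaks, and so did the median scores, from 72.5 to 87.2 and from 79.1 to 99.7. Their part in the sharing was not tested. The window from 115 Mb had the highest sharing of injury-list peaks among the windows named, 78 of 126 (61.9%), beside 71 of 78 for the control list. The window from 35 Mb had the lowest, 7 of 52 (13.5%), beside 6 of 10. Both windows were also named for their injury share, low from 115 Mb and high from 35 Mb. The window from 35 Mb held only 10 control-list peaks beside its 52 injury-list peaks, and the part of this in its sharing was not tested.

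All of the 5 highest-scoring peaks of each list overlapped a peak of the other list. The control list was led by a 2.59 kb peak (87429646 to 87432239, score 2074.94), at rank 32 among all control-list peaks, and the injury-list peak over it had a score of 297.58 and rank 3223. Next came peaks at 101022353 to 101030020 (7.67 kb, score 1686.6), 74977852 to 74982319 (4.47 kb, score 1681.11), 97393428 to 97399214 (5.79 kb, score 1667.35) and 102525755 to 102528461 (2.71 kb, score 1276.09). Injury-list peaks covered between 76.6% and 95.4% of each of the 5. The injury-list peaks over the last 4 had ranks 638, 692, 2468 and 17338 in their own list. Scores of the lists are on separate scales, and ranks come from lists of different length in which these peaks were picked from one side, so neither shows a change.

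The injury list was led by a 12.4 kb peak (60518972 to 60531347, score 1188.03), at rank 35 in its list, over a 13.1 kb control-list peak (60519104 to 60532185) of score 776.71 and rank 196. The other leading peaks were at 60013305 to 60023192 (9.89 kb, score 1005.41), 70416606 to 70424240 (7.64 kb, score 1004.6), 78941105 to 78949287 (8.18 kb, score 994.53) and 69636928 to 69643324 (6.4 kb, score 957.74). The peak at 70416606 had nearly the same extent in both lists, with 99.1% of it under a control-list peak, which ranked 5494 in its list. No region was among the 5 highest-scoring members of both lists.

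Wide peaks were few and lay in both lists, often cut at different points. Only 11 control-list and 12 injury-list members measured at least 10 kb. The widest control-list peak ran for 18.99 kb (102052108 to 102071093, score 273.49) and held a 14.1 kb injury-list peak (102056081 to 102070132, score 867.3), the fourth widest of its list. The widest injury-list peak ran for 17.8 kb (115649437 to 115667225, score 81.45) and overlapped 3 control-list peaks, among them the third widest (115642576 to 115657018, 14.4 kb). The second widest control-list peak (114637769 to 114656455, 18.7 kb) was met by 3 injury-list peaks that covered 78.2% of it. The second widest injury-list peak (115092435 to 115108867, 16.4 kb) was met by 3 control-list peaks that covered 52.1%. Over all members, 171 control-list peaks (11.7%, 10.1 to 13.5%) met several injury-list peaks, up to 4. The reverse held for 69 injury-list peaks (2.0%, 1.56 to 2.52%), which met up to 3. On the other autosomes these shares were 11.3% and 1.78%, so both values on chromosome 11 were near that background. The lists differ in length, and the part of length in the difference between them was not tested.

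Regions marked in the control list alone were usually close to an injury-list peak. Their median distance to the nearest one was 4.79 kb, 146 of 286 (51.0%) lay within 5 kb, and 10 (3.5%) lay over 100 kb away. On the other autosomes the median was 5098 bp, 49.7% lay within 5 kb and 6.13% over 100 kb away, so the share within 5 kb was near that background. They were narrower and lower-scoring than shared control-list peaks, with a median width of 2179 against 2859 bp and a median score of 62.8 against 88.1. The highest-scoring of them (11924040 to 11927600, 3.56 kb, score 820.54) stood at the edge of the longest bare stretch. It was the only control-list peak of its window, and the nearest injury-list peak was 167.5 kb away. It was not the most isolated, since the control-list peak near 17.1 Mb lay 1844.7 kb from an injury-list peak. The next 4 by score were at 21892160 to 21896751 (score 364.28), 21903539 to 21905907 (score 299.09), 82680737 to 82683911 (score 220.75) and 83230817 to 83235349 (score 195.25). These 4 all lay between 2.27 and 4.38 kb from an injury-list peak.

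Regions marked in the injury list alone lay a median of 9.57 kb from a control-list peak, 759 of 2174 (34.9%) within 5 kb and 123 (5.66%) over 100 kb away. On the other autosomes the median was 12975 bp, 29.7% lay within 5 kb and 11.3% over 100 kb away. Distances to the 2 lists are not comparable, since the longer list has a peak nearby more often. Their median width was 1915 bp against 2553 bp for shared injury-list peaks, and their median score 74.8 against 134.5. The largest numbers were in the windows from 113 Mb (104 of 162 injury-list peaks), 100 Mb (80 of 122) and 88 Mb (66 of 94). These windows were also among the fullest of the injury list. The shared part of their injury-list peaks was 35.8%, 34.4% and 29.8%, against 37.1% of all injury-list members. The peaks over 100 kb away were scattered over 43 windows, with at most 8 in one, that from 35 Mb. Among all injury-list peaks without overlap, at any distance, the 5 with the highest scores were broad. They were at 113592942 to 113601481 (8.54 kb, score 793.02), 113281291 to 113287615 (6.33 kb, score 507.14), 108804790 to 108814227 (9.44 kb, score 427.57), 68184755 to 68188723 (3.97 kb, score 426.34) and 109126682 to 109133593 (6.91 kb, score 386.1). The first and second belong to the window from 113 Mb, and the second lies inside the first of its 27-peak runs. The nearest control-list peaks to these 5 lay 1.26, 9.88, 3.59, 7.71 and 5.21 kb away, so 2 of the 5 were within 5 kb.

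Injury-list peaks were narrower than control-list peaks over all members, and less so where the lists overlapped. The middle 50% of control-list widths lay between 2055 and 3698 bp around a median of 2691 bp. For the injury list these limits were 1570 and 2925 bp around a median of 2073 bp. With the reduced injury list the median was 3036 bp. That list keeps only scores of at least 105.41, and injury-list widths went up with score (Spearman rho 0.69), while the control list was not cut. Its median is therefore no test of the order of the lists. In 900 pairs, a single peak of one list met a single peak of the other, and the medians were 2729 bp (control) and 2540 bp (injury). The narrower peak was the injury one in 518 pairs (57.6%, 54.3 to 60.8%). The ratio of its width to that of the control-list peak had a median of 0.946 and ran from 0.561 at the 10th to 1.58 at the 90th percentile. The midpoints lay a median of 282 bp apart, and within 500 bp in 598 pairs (66.4%). The injury-list peak lay inside the control-list peak in 306 pairs (34.0%), enclosed it in 168 (18.7%) and was staggered against it in 426 (47.3%). Across pairs, scores of the lists had a Spearman rho of 0.39 and widths one of 0.54, as descriptions.

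Within each list, peaks stood close together with wide spaces between the groups. The median gap between neighbouring members was 12.1 kb between control-list peaks (quartiles 2.99 and 42.5 kb) and 4.32 kb between injury-list peaks (1.27 and 14.6 kb). Another peak of the same list lay within 5 kb of 51.4% of control-list members (48.8 to 54.0%) and of 72.7% of injury-list members (71.1 to 74.1%). On the other autosomes together these shares were 48.3% (47.5 to 49.0%) and 69.4% (68.9 to 69.8%). Chromosome 11 ranked 8 and 6 of 19 by them. The lists differ in length, so their spacing is not comparable. The longest gap was 6429.8 kb between control-list peaks and 7150.5 kb between injury-list peaks. Gaps over 1 Mb numbered 15 in each list and added up to 38.2 and 32.5 Mb.

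Chromosome 11 was then set beside the interiors of the other 18 autosomes, from which the first 8 Mb and the last 5 Mb before the last peak were left out. Its injury-list density was 31.8 peaks per Mb, against 31.2 on chromosome 17, 30.3 on chromosome 5 and 26.7 on chromosome 4. Its control-list density was 13.4 per Mb, below the 14.01 of chromosome 17. With the ends left out it therefore ranked 1 of 19 in the injury list but 2 of 19 in the control list, and by covered bases its rank was 3 in both. Its injury share of 70.3% (69.0 to 71.6%) had an interval that met those of the next densest: 70.4% (69.1 to 71.6%) on chromosome 4, 70.1% (68.9 to 71.2%) on chromosome 5 and 69.0% (67.4 to 70.5%) on chromosome 17. The 18 other autosomes together had 72.4% (72.1 to 72.8%), a difference of -2.08 points (-3.43 to -0.76). The interval took in 0 at the control 75th percentile score (-1.66 points, -4.01 to 0.61) and with the reduced injury list (-1.45 points, -3.39 to 0.48). This interval treats peaks as independent, and no test over autosomes was made.

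**Figure D5:**
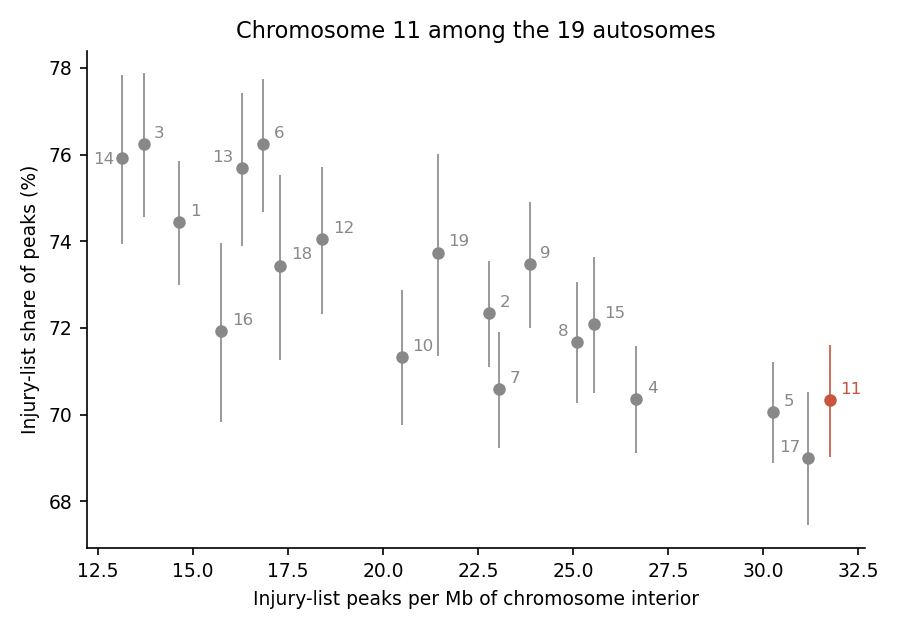
Injury-list share of peaks against injury-list peaks per Mb in the interior of each autosome, numbered, with chromosome 11 in colour; bars are exact binomial 95% intervals. Chromosome 11, at 31.8 peaks per Mb and 70.3%, lies beside chromosomes 5 and 17.

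In evenness chromosome 11 stood at or near one end of the autosomes. The fullest 10% of its windows held 40.1% of its control-list peaks, below the 41.1% to 55.2% of the other autosomes, and 33.8% of its injury-list peaks, where the others ran from 33.3% to 48.3%. Windows without a control-list peak made up 21.3% (others 20% to 42.9%), and windows without an injury-list peak 14.8% (others 15.5% to 36.2%). The rank correlation of the lists over windows, 0.974, was the highest of the 19, with the others from 0.881 to 0.968. Peak density was also at or near its highest here, and its part in these values was not tested. In other measures it lay among the rest: control-list sharing of 80.4% (others 74.7% to 84.9%), injury-list sharing of 37.1% (25.7% to 41.7%), and median widths of 2691 bp (2418 to 2776 bp) and 2073 bp (1904 to 2159 bp).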

How the data were processed

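hMe-Seal libraries were made from brain DNA of 3 control and 3 injured mice. Reads were handled with Bowtie 0.12.9, CASAVA 1.4 and MACS 1.4.2 on mm9, per the submitters' processing notes, which give no settings here. The authors deposited 1 list per group with positions and a score per peak. The score is taken to be the usual one of this MACS version, which grows with read depth. It is used within its own list, except that the score thresholds below put the same cut-off on both lists. The sources used here do not state pooling, input control or depth.

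Lists were matched to groups by the name shared with the samples. Overlap, windows by midpoint, distances and intervals were computed with Python 3.11.15, numpy 2.4.6, pandas 2.3.3 and scipy 1.17.1; positions count from 1. Checked against every pair of members taken in turn, the overlap functions gave 0 mismatches. The members, the windows and the alternatives were chosen with earlier results of these data known. Regions were named by a rule: the 5 fullest windows of each list, the 5 emptiest, the 3 highest and 3 lowest injury shares, the 5 highest-scoring, the 5 widest and the 5 highest-scoring unshared peaks of each list, the 3 longest bare stretches and the 3 largest runs. The 5 emptiest windows, which begin at 10, 12, 13, 14 and 15 Mb, were the first of 15 tied at 0. Planned counts of genes under peaks were not made, for want of an mm9 annotation here. Alternatives were stricter scores, a reduced injury list, merging within 1 kb, covered bases, other windows and other definitions of sharing. The stricter scores were the control list's 50th and 75th percentile, 79.65 and 120.42, applied to both lists. With read depth unknown, such a cut-off need not be equally strict in both lists.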

Additional observations from a re-analysis of the deposited data

How the results depend on the processing

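The injury share of members, 70.3%, was 72.8% at the control median score and 75.2% at the control 75th percentile score. It was 68.0% after merging within 1 kb and 65.5% in covered bases. With the reduced injury list it fell under 50%, to 48.5%. The construction of that list sets a share of 50% over the whole series, but not the exact share on chromosome 11. Windows with more injury-list peaks stayed between 92.6% and 96.8% under the other alternatives and were 32.9% with the reduced list. In the fullest group of windows the injury share was 71.8% at the control median score, 74.8% at the 75th percentile, 66.2% merged, 63.9% in covered bases, 67.1% with groups of equal peak number and 49.3% with the reduced list. In the emptiest group it was 0% with the reduced list (4 control-list and 0 injury-list peaks), and the 75th percentile left no peak there. With the reduced list the shares of the windows from 115, 97, 69 and 98 Mb were 42.6%, 39.4%, 47.4% and 42.4%. Those from 113, 100, 88, 35, 90 and 63 Mb were 54.8%, 51.0%, 50.8%, 56.5%, 55.6% and 66.7%. Of all these windows only that from 97 Mb had an interval (30.2 to 49.3%) that left out 50%. Some rested on few peaks, such as 4 control-list and 5 injury-list peaks from 90 Mb (21.2 to 86.3%).

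Control-list sharing was 75.6% at the 75th percentile score, 56.4% with the reduced list, 63.3% at an overlap of 50% of both peaks and 83.6% within 1 kb. Injury-list sharing was 33.2% at the control median score, 27.2% at the 75th percentile, 60.2% with the reduced list, 26.7% at 50% of both peaks and 44.0% within 1 kb. For unshared peaks alone the medians were 2179 bp and a score of 62.8 (control), and 1915 bp and 74.8 (injury). The injury-list medians were 2540 bp and 135.6 in one-to-one overlaps and 3036 bp and 162.1 in the reduced list. The reduced list keeps only high scores, and high-scoring peaks were wider, so it is no test of the order of the lists by width. Neighbours within 1 kb were found for 23.6% (control) and 37.6% (injury) of members; within 5 kb the shares were 39.1% and 60.3% after merging and 59.4% in the reduced injury list. Chromosome 11 ranked 3 by control-list density at the 75th percentile and in covered bases, and 3 by injury-list density at both score thresholds, with the reduced list and in covered bases. Its share stayed below that of the other autosomes under every alternative run, by -1.45 to -2.70 points, though the interval took in 0 at the 75th percentile and with the reduced list. Causes of these moves were not tested except where the reduced list sets them. No paired analysis was possible because the mice of a group share 1 list, and no mouse could be left out.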

Other observations

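Members with a score at or above the 90th percentile of their list, which takes in 1 peak more per list than the top score group above, were most numerous in the same 3 distal places. In the control list 146 such peaks fell in 45 windows, with 14 in the window from 115 Mb, 14 in the short stretch from 116 Mb and 12 in that from 97 Mb. In the injury list 346 such peaks fell in 55 windows, with 29 from 116 Mb, 21 from 97 Mb and 20 from 115 Mb.

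The 10 control-list peaks over 100 kb from any injury-list peak fell in 10 separate windows. Apart from the peak near 11.9 Mb, with a score of 820.54, their scores ran from 50.15 to 88.39. One of them, near 17.1 Mb and with a score of 88.39, stood alone between the longest bare stretch and another of 1.84 Mb.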
